A study of Mus musculus with 4 samples.

Results

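The anaphase-promoting complex, or cyclosome (APC/C), is the ubiquitin ligase that ends metaphase, and the transcripts of its 10 subunits with *Anapc* symbols were followed through oocyte maturation with and without tubastatin A (TubA). The genes were *Anapc1*, *Anapc2*, *Anapc4*, *Anapc5*, *Anapc7*, *Anapc10*, *Anapc11*, *Anapc13*, *Anapc15* and *Anapc16*, taken as a list by symbol. All 10 were found, each under 1 Ensembl identifier, among the 21959 entries of the expression table. TubA, a hydroxamic acid, is used as an inhibitor of the deacetylase HDAC6.

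Oocytes came from B6D2F1 hybrid females (C57BL/6 x DBA) aged 6 to 8 weeks that had received gonadotropin. GV oocytes, which are held in prophase of meiosis I with an intact germinal vesicle, were taken at 0 h of culture without treatment. MII oocytes were untreated, cultured for 12 h and kept if a polar body was seen, so they stand at the second metaphase. TubA-10 and TubA-20 oocytes were cultured for the same 12 h with 10 or 20 μM TubA. Those doses are the ones in the sample titles and the methods, but the treatment field of TubA-10 reads 20 μM and that of TubA-20 reads 11 μM. TubA was dissolved in DMSO, and whether untreated oocytes received DMSO is not given in the sources used here. Cumulus cells had been removed with hyaluronidase. Each condition was 1 library from 100 pooled oocytes, so no difference can be set against replicates and no p-value is given. No selection by polar body is stated for TubA oocytes. The paper reports that TubA-treated oocytes did not extrude a polar body, and that the higher dose arrested them before MII. Treatment and meiotic stage thus cannot be told apart in comparisons with MII.

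The APC/C attaches ubiquitin to cyclin B and securin, which sends them to the proteasome, and this lets homologous chromosomes separate and the oocyte leave meiosis I. *Anapc1*, *Anapc4* and *Anapc5* encode the scaffold. *Anapc2* encodes the cullin and *Anapc11* the RING protein that together form the catalytic module, and *Anapc10* a subunit that helps to hold substrates. *Anapc7* belongs to the arm of tetratricopeptide repeat (TPR) proteins that docks the activators CDC20 and CDH1. *Anapc13* and *Anapc16* encode small subunits bound to that arm, and *Anapc15* a small subunit needed to turn over the checkpoint complex that holds CDC20. In oocytes, CDH1 helps to keep the prophase arrest, CDC20 drives exit from meiosis I, and EMI2, the product of *Fbxo43*, holds the APC/C inactive at MII.

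Polyadenylated RNA was sequenced, and the transcript ends of the subunits were examined since maternal mRNAs gain or lose poly(A) as oocytes mature. A cytoplasmic polyadenylation element was searched for as TTTTAT or TTTTAAT, and a polyadenylation signal as AATAAA or ATTAAA, on the transcript strand in the last 100 bases of the annotated transcript with the longest coding sequence. The polyadenylation signal was present in 8 of the 10 subunit transcripts, against 72.7% of 21515 genes. The cytoplasmic element was present in 0 of the 10, against 16.2% of the same genes. With the longest transcript of each gene in place of that one, 1 of 10 held it, *Anapc7*. A match is only a description of the annotated ends, and the ends used in these oocytes were not read. The following 30-base windows of GENCODE M21 transcripts on GRCm38, the assembly behind mm10, show the signal in capitals for the pair of genes that passed 2-fold below GV, *Anapc2* and *Anapc15*, and for 2 genes with higher values in TubA-20, *Anapc11* and *Anapc16*.
Anapc2 (chr2:25285886-25285915, plus strand): gtggccATTAAAaggaactcttggtccttc
Anapc15 (chr7:101901816-101901845, plus strand): aagagtggcAATAAAtgtctgctggataac
Anapc11 (chr11:120608169-120608198, plus strand): tatgtaaaccaAATAAAccctttcctcccc
Anapc16 (chr10:59987908-59987937, minus strand): tgtggcaAATAAAcccttacacgaggtcca
The signal was ATTAAA in *Anapc2* and AATAAA in the other 3.

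All 10 genes were listed well above 0 in every library, from 4.93 FPKM (*Anapc2* in TubA-20) to 302 FPKM (*Anapc15* in GV). FPKM are fragments scaled to transcript length and to all mapped fragments, which puts different genes on a common scale. The RNA was selected by poly(A), and the part of poly(A) length in differences between genes was not tested. *Anapc11*, *Anapc15* and *Anapc16* stood at 100.5 FPKM or more in all 4 libraries, *Anapc4*, *Anapc5* and *Anapc13* between 35.2 and 104, and *Anapc1*, *Anapc2*, *Anapc7* and *Anapc10* between 4.93 and 36.3. The lowest gene was the scaffold gene *Anapc1* in GV and the cullin gene *Anapc2* in the cultured oocytes, and the highest *Anapc15* in GV and TubA-10 and *Anapc11* in MII and TubA-20. Within a library the highest gene exceeded the lowest by 36.1-fold in GV, 32.7-fold in TubA-10, 26.4-fold in MII and 47.2-fold in TubA-20.

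**Figure D1:**
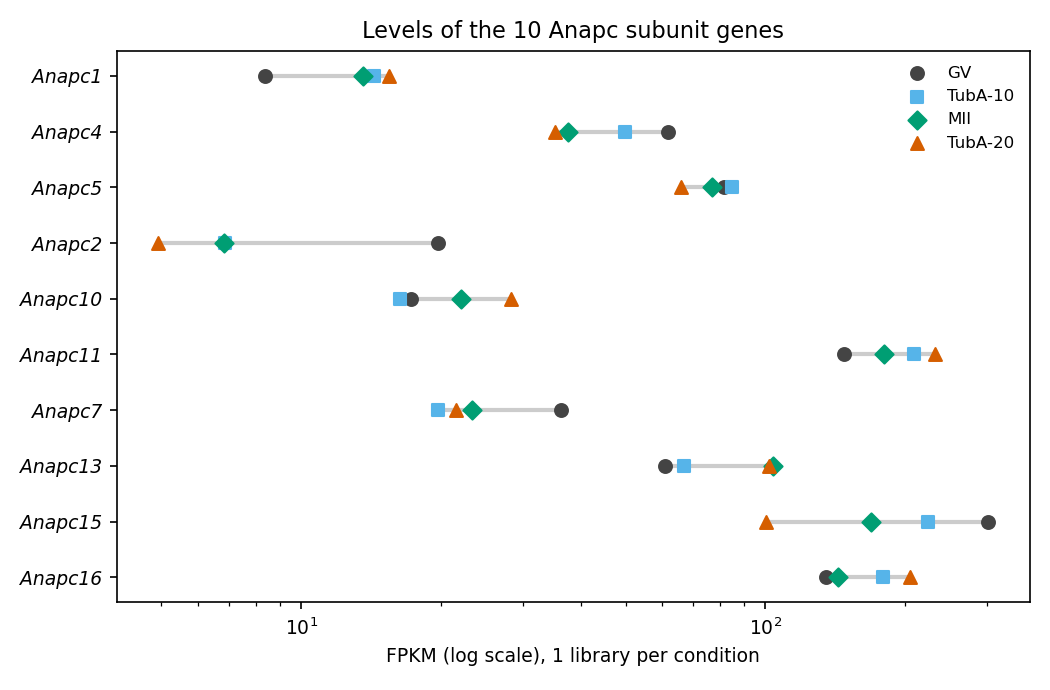
FPKM of the 10 *Anapc* genes on a log axis, with 1 point per library (GV circle, TubA-10 square, MII diamond, TubA-20 triangle) and a grey line over their range. *Anapc2* and *Anapc15* span the widest ranges and have GV highest and TubA-20 lowest, while *Anapc1*, *Anapc11* and *Anapc16* have GV lowest and TubA-20 highest.

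The libraries were checked for what they hold before the comparisons. All 10 oocyte markers (*Zp1*, *Zp2*, *Zp3*, *Gdf9*, *Bmp15*, *Ooep*, *Nlrp5*, *Figla*, *Mos*, *Zar1*) were present in every library, with sums of 9431 to 11113 FPKM. The sums hide opposite changes, since *Figla* went from 90.5 FPKM in GV to 70.2 in TubA-10, 41.9 in MII and 12.4 in TubA-20, and *Zp1*, *Zp2* and *Zp3* were also more than 2-fold below GV in TubA-20 while *Gdf9* was more than 2-fold above. The part of such oocyte-wide shifts in the subunit values was not tested. The 11 cumulus and granulosa markers summed to 17.6 FPKM in GV, 9.13 in TubA-10, 11.4 in MII and 13.9 in TubA-20, and 1 to 3 of them reached 1 FPKM. *Foxl2* was listed at 0 in all 4 libraries, *Amh* in the 3 cultured ones, and *Inha* stood at 7.50 FPKM in GV and 0.239 to 0.314 in the cultured oocytes. *Cyp19a1*, which made up most of the sum in the cultured oocytes, went the other way, from 6.14 FPKM in GV to 7.42 in TubA-10, 8.60 in MII and 10.3 in TubA-20. The part of such cells in the differences from GV was not tested. Of 5 blood markers, *Hba-a1*, *Hbb-bs* and *Hbb-bt* were listed at 0 throughout, and the sums were 1.64 to 2.26 FPKM. Of all entries, 9193 had 1 FPKM or more throughout, and their median log2 change was 0.13 for MII against GV, 0.14 for TubA-10 and 0.19 for TubA-20. Measured from the median gene, each change against GV is lower by that amount. Less of a transcript per oocyte and a smaller share of the oocytes holding it cannot be told apart in such pools, nor can transcript amount and poly(A) length.

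Maturation without drug was compared first, as MII against GV. MII oocytes differ from GV in meiotic stage, in 12 h of culture and in selection by polar body, and these cannot be told apart. The cullin gene *Anapc2* fell past 2-fold and no subunit rose past it. Changes are log2 ratios of FPKM + 1, which understate those of low genes, and only changes past 2-fold were counted. A fold printed beside a log2 change is the ratio of the FPKM without the added 1. *Anapc2* was at 19.7 FPKM in GV and 6.82 in MII, a log2 change of −1.40, with FPKM 2.89-fold lower. Of the 10 subunits 1 was thus more than 2-fold lower, where the share of all 21959 entries was 8.34%, and 20.8% of the 7685 genes with at least 5 FPKM in GV or MII. None of the 10 was more than 2-fold higher, with 3.05% of all entries and 8.26% of the expressed ones. Their median log2 change was 0.00, and 5 lay below 0 and 5 above.

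The other 9 subunits did not pass 2-fold between GV and MII. *Anapc15* went from 302 to 169 FPKM (log2 change −0.84), *Anapc4* from 61.8 to 37.6 (−0.70) and *Anapc7* from 36.3 to 23.4 (−0.61). On the other side stood *Anapc13*, from 60.8 to 104 FPKM (0.76), and *Anapc1*, from 8.37 to 13.6 (0.64). *Anapc10* (0.34) and *Anapc11* (0.29) had smaller positive log2 changes. The log2 change of *Anapc5* (−0.08) turned positive when the libraries were scaled to equal sums or equal *Gapdh*, and that of *Anapc16* (0.09) turned negative with the median change set to 0. No direction is given for those 2 genes.

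The higher dose was compared with GV next. In comparisons of either dose with GV, treatment, meiotic stage and the 12 h of culture cannot be told apart. Past 2-fold, 2 subunits fell in TubA-20, the cullin gene *Anapc2* and the checkpoint-turnover gene *Anapc15*, and none was more than 2-fold higher. *Anapc2* was at 4.93 FPKM in TubA-20 (log2 change −1.80, 4.0-fold lower than GV). *Anapc15* was at 101 FPKM (log2 change −1.58, 3.01-fold lower), and whether it shares reads with the entry named as its pseudogene, *Anapc15-ps* (1.22 FPKM there), was not tested. Both calls held under all 4 scalings, with log2 changes from −1.99 to −1.75 and from −1.77 to −1.51 over all settings. The share of all entries more than 2-fold lower was 11.7%, and 26.8% of the 7778 genes with at least 5 FPKM in GV or TubA-20, so 2 of 10 is not above the level of expressed genes. In the upward direction the shares were 7.61% and 20.2%, against 0 of 10 subunits.

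Around these falls the remaining subunits parted into those with higher and those with lower values. The log2 change from GV to TubA-20 was 0.81 for *Anapc1*, 0.73 for *Anapc13*, 0.68 for *Anapc10*, 0.65 for *Anapc11* and 0.60 for *Anapc16*. It was −0.80 for *Anapc4*, −0.73 for *Anapc7* and −0.30 for *Anapc5*. These signs held for all 10 subunits under every scaling, although none of the 8 passed 2-fold. The median of the 10 was 0.15, against 0.19 for the median gene, and it turned to −0.04 once the latter was set to 0. The scaffold genes did not share a sign, since *Anapc1* was higher and *Anapc4* and *Anapc5* lower, nor did the catalytic genes, since *Anapc2* was lower and *Anapc10* and *Anapc11* higher.

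At 10 μM *Anapc2* fell as well, while *Anapc15* did not pass 2-fold. *Anapc2* was at 6.84 FPKM in TubA-10, a log2 change of −1.40, and it was the 1 subunit more than 2-fold lower (background 5.6% of all entries, 14.2% of the 7579 at 5 FPKM or more). No subunit was more than 2-fold higher, with 0.742% of all entries and 1.77% of the expressed ones. *Anapc15* was at 224 FPKM (log2 change −0.43), *Anapc7* at 19.7 (−0.85) and *Anapc4* at 49.9 (−0.30). *Anapc1* was at 14.4 FPKM (0.72), *Anapc11* at 209 (0.50) and *Anapc16* at 179 (0.41). For *Anapc5* (0.06), *Anapc10* (−0.07) and *Anapc13* (0.14) the sign depended on scaling, turning with the median change set to 0 for *Anapc5* and *Anapc13* and with equal *Gapdh* for *Anapc10*. The comparisons with GV share the GV library, so their likeness is not independent.

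**Figure D2:**
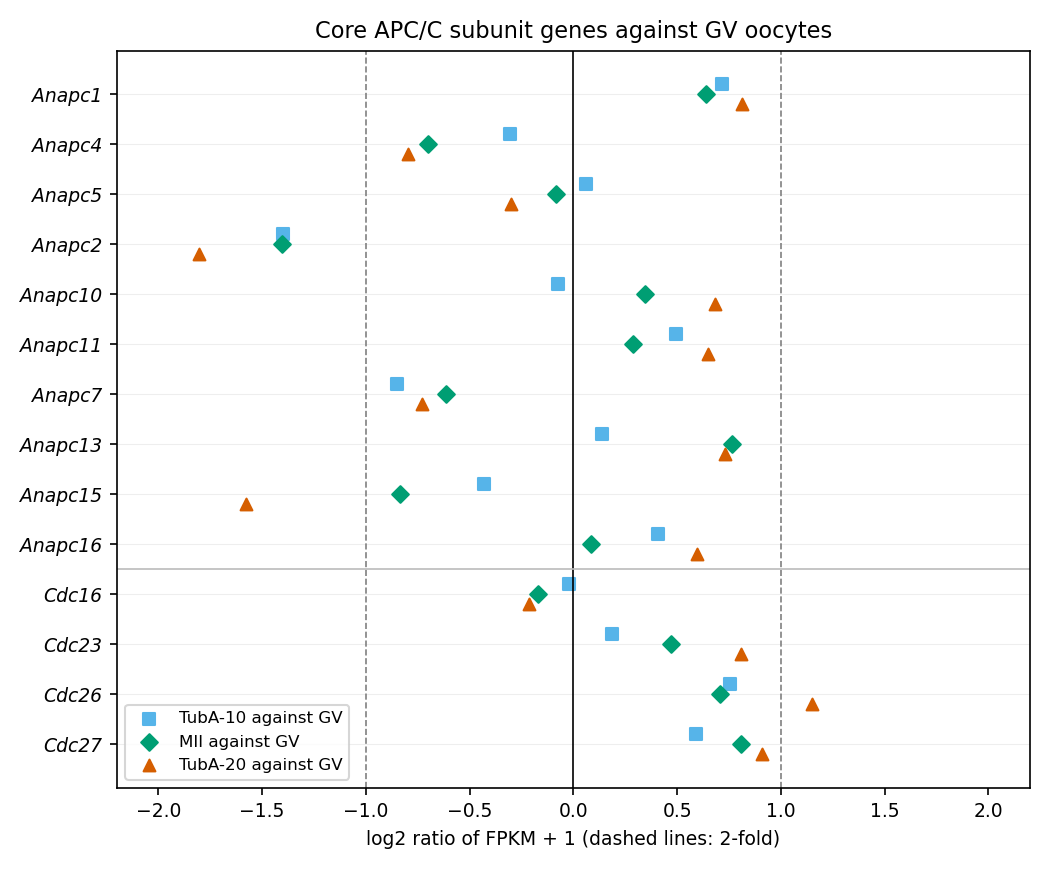
Log2 ratios of FPKM + 1 against GV for the 10 *Anapc* genes (above the grey line) and the 4 other core subunit genes, with 1 point each for TubA-10 (square), MII (diamond) and TubA-20 (triangle), and dashed lines at 2-fold. *Anapc2* lies past 2-fold in all 3 libraries and *Anapc15* in TubA-20, while *Anapc1* lies between 0.64 and 0.81.

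The treated oocytes were then set against MII, the untreated oocytes of the same culture time. By the paper's account the higher dose arrested oocytes before MII, so meiotic stage differs here along with treatment. None of the 10 subunits passed 2-fold in TubA-20 against MII, where 2.44% of all entries were more than 2-fold lower and 0.328% higher. Among the 7197 genes at 5 FPKM or more in TubA-20 or MII, the shares were 6.09% and 0.542%. *Anapc15* had the lowest value, 101 against 169 FPKM (log2 change −0.74), followed by *Anapc2*, 4.93 against 6.82 (−0.40), and *Anapc5*, 65.9 against 76.7 (−0.22). *Anapc16* had the highest, 205 against 143 FPKM (0.51), then *Anapc11*, 232 against 180 (0.36), and *Anapc10*, 28.3 against 22.1 (0.34). The other 4 lay between −0.11 (*Anapc7*) and 0.17 (*Anapc1*). Of the same genes, 10.7% had a lower log2 change than *Anapc15* and 89.9% a lower one than *Anapc16*. Over the 10 subunits the median log2 change was −0.06, with 6 below 0 and 4 above, and those signs held under every scaling.

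TubA-10 against MII again had no subunit past 2-fold, with 0.128% of all entries lower and 0.515% higher, or 0.206% and 1.29% of the 7292 genes at 5 FPKM or more in TubA-10 or MII. *Anapc2* was nearly equal, 6.84 against 6.82 FPKM. *Anapc13* was at 66.9 against 104 FPKM (log2 change −0.63), and 1.23% of those expressed genes had a lower change. *Anapc10* was at 16.3 against 22.1 FPKM (−0.42). On the positive side, with TubA-10 above MII, were *Anapc15* (0.40), *Anapc4* (0.40) and *Anapc16* (0.32). The doses thus lay on opposite sides of MII for *Anapc15*, *Anapc4*, *Anapc5* and *Anapc10*, which was not tested for want of replicates.

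Between the doses, TubA-20 against TubA-10, *Anapc15* fell from 224 to 101 FPKM, a log2 change of −1.15, with FPKM 2.23-fold lower. It was the 1 subunit of 10 more than 2-fold lower, with 5.52% of all entries and 14.1% of the 7374 at 5 FPKM or more. None was more than 2-fold higher, with 0.66% and 1.45%. *Anapc10* went the other way without passing 2-fold, from 16.3 to 28.3 FPKM (log2 change 0.76, above 92.9% of the expressed genes), as did *Anapc13*, from 66.9 to 102 (0.60). *Anapc4* (−0.49), *Anapc2* (−0.40) and *Anapc5* (−0.36) were lower at 20 μM. For *Anapc1*, *Anapc7*, *Anapc11* and *Anapc16* the change lay between 0.10 and 0.19 and turned negative with equal *Gapdh*.

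**Figure D3:**
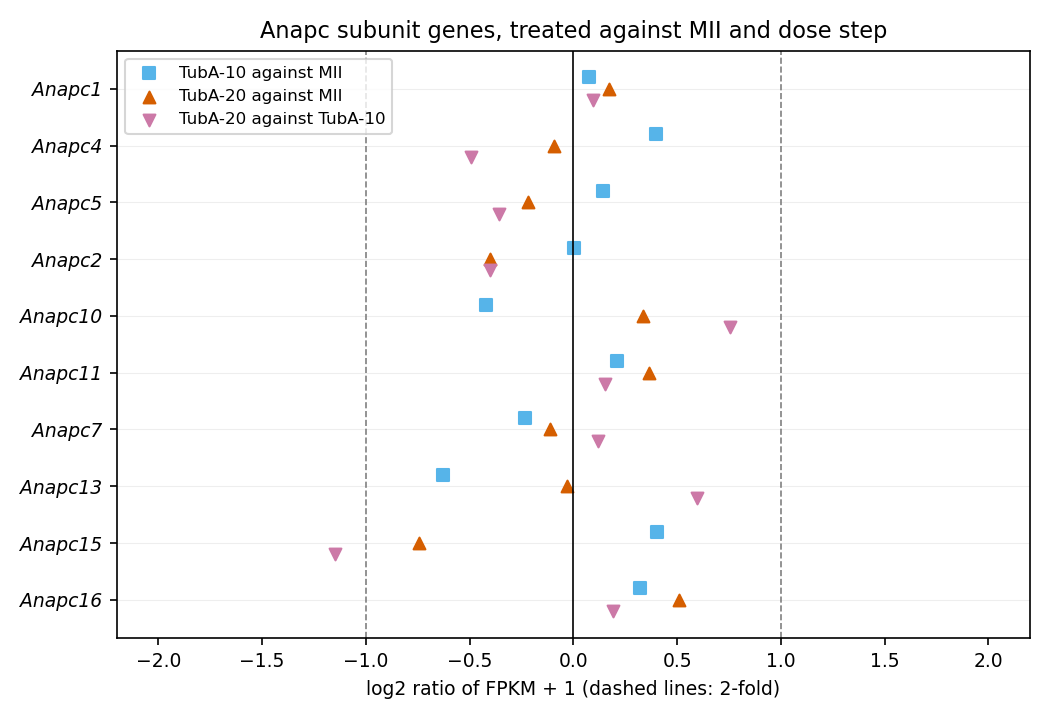
Log2 ratios of FPKM + 1 for the 10 *Anapc* genes in TubA-10 against MII (square), TubA-20 against MII (triangle) and TubA-20 against TubA-10 (inverted triangle), with 1 library per condition and dashed lines at 2-fold. Only the dose step of *Anapc15*, at −1.15, lies past 2-fold among the points shown.

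Read over all 4 libraries, *Anapc2*, *Anapc4* and *Anapc15* had the same order of levels, GV highest, then TubA-10, MII and TubA-20. *Anapc1*, *Anapc11* and *Anapc16* had TubA-20 highest, then TubA-10, MII and GV. The other 4 genes each had an order of their own. Neighbouring levels in such an order may be very close, as those of *Anapc2* in TubA-10 and MII, and there is no spread to judge them by. *Anapc4* was at 61.8, 49.9, 37.6 and 35.2 FPKM in the order GV, TubA-10, MII and TubA-20. *Anapc7* was highest in GV at 36.3 FPKM and between 19.7 and 23.4 in the cultured oocytes. *Anapc5* varied least, from 65.9 to 84.8 FPKM.

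Ratios of FPKM within a library do not depend on scaling, so they are given for pairs of subunits. The part of transcript length and poly(A) length in these ratios was not tested. The RING gene *Anapc11* exceeded its cullin partner *Anapc2* by 7.50-fold in GV, 30.5-fold in TubA-10, 26.4-fold in MII and 47.2-fold in TubA-20, which is 6.29 times the GV ratio in TubA-20. *Anapc16* was at 0.447 times *Anapc15* in GV, 0.801 in TubA-10, 0.849 in MII and 2.04 in TubA-20. *Anapc13* relative to *Anapc15* went from 0.201 in GV to 0.299, 0.615 and 1.01 in the same order of libraries. The last 2 pairs were chosen after their values had been seen. The scaffold pair *Anapc4* and *Anapc5* moved less, with a ratio of 0.760 in GV and 0.491 to 0.588 in the cultured oocytes.

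The sum of the 10 genes was 871 FPKM in GV, 871 in TubA-10, 777 in MII and 811 in TubA-20 as listed. It depends on scaling, since equal *Gapdh* would multiply TubA-10 by 1.20, MII by 1.17 and TubA-20 by 1.05. The make-up of the sum does not depend on scaling, and differed between libraries. *Anapc15* supplied 34.7% of the sum in GV, 25.7% in TubA-10, 21.7% in MII and 12.4% in TubA-20. *Anapc11* supplied 17.0%, 24.0%, 23.2% and 28.7%, and *Anapc16* 15.5%, 20.6%, 18.5% and 25.3%, in the same order. *Anapc2* went from 2.26% in GV to 0.608% in TubA-20.

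**Figure D4:**
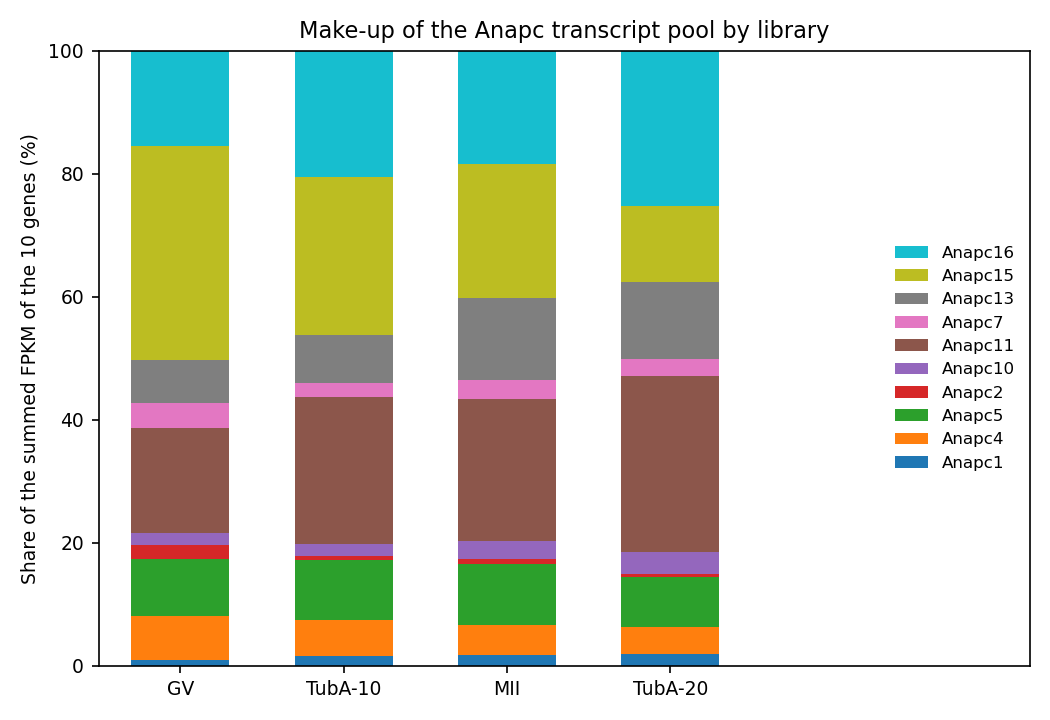
Stacked bars of the share (%) of each *Anapc* gene in the summed FPKM of the 10 genes, 1 bar per library. The *Anapc15* block shrinks from 34.7% in GV to 12.4% in TubA-20, and the *Anapc11* block grows from 17.0% to 28.7%.

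The subunits with *Cdc* symbols complete the core complex. *Cdc27*, *Cdc16* and *Cdc23* encode further TPR proteins of the arm, and *Cdc26* a small protein that steadies CDC16. *Cdc26* rose from 67.3 FPKM in GV to 151 in TubA-20 (log2 change 1.15, or 0.96 with the median change set to 0), and stood at 111 in MII and 115 in TubA-10. *Cdc27* was at 61.9 FPKM in GV, 93.6 in TubA-10, 109 in MII and 117 in TubA-20, and *Cdc23* at 16.0, 18.3, 22.6 and 28.8. *Cdc16* stayed between 13.5 and 15.8 FPKM. Their median log2 change from GV was 0.86 in TubA-20 and 0.59 in MII, beside 0.15 and 0.00 for the 10 *Anapc* genes. *Cdc23*, *Cdc26* and *Cdc27* thus had higher values than in GV, whereas *Anapc7*, of the same arm, had lower ones. *Cdc16* was also lower in TubA-20 (log2 change −0.21), and its sign depended on scaling in MII (−0.17) and TubA-10 (−0.02). The arm-bound *Anapc13* (0.73) and *Anapc16* (0.60) were higher in TubA-20. With so few genes these differences were not tested.

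Of the 22 other APC/C genes on the list (those 4 with activators, E2 enzymes, inhibitors, substrates and partners), 7 rose past 2-fold and 1 fell from GV to TubA-20, 2 rose and 0 fell from GV to MII, and 0 did either from GV to TubA-10. Among expressed genes the shares higher and lower were 20.2% and 26.8% for TubA-20, 8.26% and 20.8% for MII, and 1.77% and 14.2% for TubA-10, so the 2 of 22 in MII are near the background. The higher count in TubA-20 ranged from 5, with the median change set to 0, to 8 over the settings, and that in MII from 1 to 6. The list was chosen with earlier results of these data known, so the 7 of 22 in TubA-20 are not read as an excess over 20.2%. In TubA-20 the 7 were *Cdc26*, the E2 genes *Ube2s* (1.26) and *Ube2d1* (1.40), the cyclin genes *Ccnb1* (1.23) and *Ccna2* (1.63), the securin gene *Pttg1* (1.45) and the separase gene *Espl1* (1.07). *Pttg1* was the most abundant, at 2606 FPKM in GV, 3645 in TubA-10, 5029 in MII and 7145 in TubA-20. In MII the 2 were *Fbxo43* (1.15) and *Espl1* (1.12, or 0.998 with the median change set to 0). *Fzr1*, which encodes CDH1, fell from 63.6 FPKM in GV to 23.1 in TubA-20 (log2 change −1.42) and was at 70.2 in TubA-10 and 50.3 in MII. Against MII it was the 1 gene of the 22 past 2-fold (TubA-20 lower, −1.09). In that comparison 2.44% of all entries and 6.09% of expressed genes were more than 2-fold lower, so 1 of 22 is near the background. *Cdc20* was at 78.9 FPKM in GV, 79.8 in TubA-10, 122 in MII and 137 in TubA-20, so the ratio of *Cdc20* to *Fzr1* was 1.24 in GV and 1.14 in TubA-10, and 2.43 in MII and 5.92 in TubA-20.

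**Figure D5:**
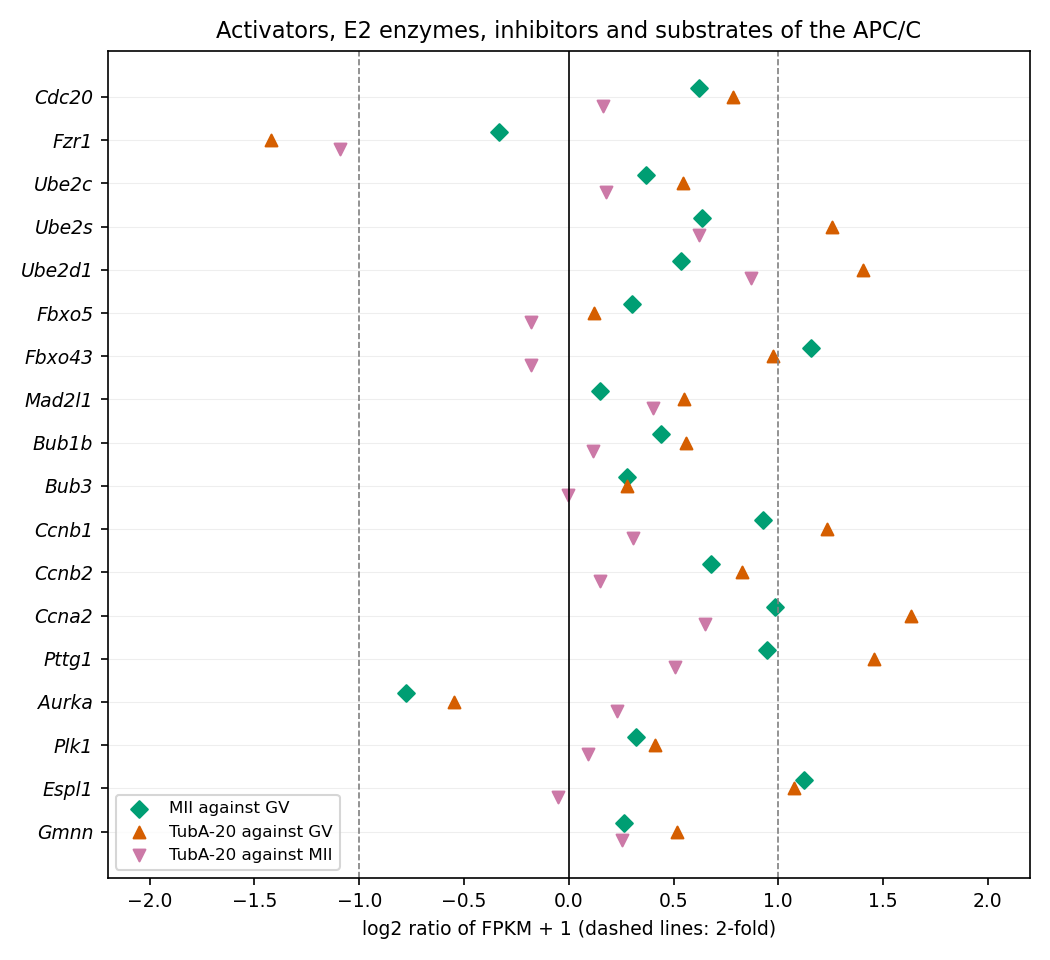
Log2 ratios of FPKM + 1 for activators, E2 enzymes, inhibitors, substrates and partners of the APC/C in MII against GV (diamond), TubA-20 against GV (triangle) and TubA-20 against MII (inverted triangle), with dashed lines at 2-fold. *Fzr1* is at −1.42 against GV and −1.09 against MII in TubA-20, and *Ccna2* at 1.63 against GV.

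The genes lie on 7 chromosomes of GRCm38 and differ widely in size. *Anapc2* (chromosome 2, 25272478 to 25285915, plus strand) has 13 exons and a protein of 837 residues. *Anapc15* (chromosome 7, 101863715 to 101901849, plus strand) has 16 annotated transcripts, and the one with the longest coding sequence has 5 exons and encodes 161 residues. *Anapc11* (chromosome 11, 120598421 to 120608198, plus strand) encodes 84 residues. *Anapc1* (chromosome 2, 128610104 to 128687391, minus strand), the largest, has 48 exons and encodes 1944 residues. *Anapc5* and *Anapc7* lie on chromosome 5, 342547 bases apart and on opposite strands. Exons of *Anapc13* overlap those of *Cep63*, and exons of *Anapc15* those of *Tomt*, on the opposite strand. The library was strand-specific. Across 7757 genes with at least 5 FPKM in GV or TubA-20, the log2 change between them had a Spearman rho of 0.36 with transcript length, so shorter transcripts tended to lower values. It was 0.42 for MII against GV and −0.41 for TubA-10 against MII. Among the 10 subunits rho was 0.24 for TubA-20 against GV, 0.13 for MII against GV and −0.07 for TubA-10 against MII. In TubA-20 against GV, *Anapc15* (1328 bases, lower), *Anapc1* (8942 bases, higher) and *Anapc10* (4591 bases, higher) lay with the trend of all genes. *Anapc13* (727 bases, higher), *Anapc16* (1379 bases, higher) and *Anapc4* (3854 bases, lower) lay against it. Of the rest, *Anapc2*, *Anapc5* and *Anapc7* (2760 to 3004 bases) were lower and *Anapc11* (3229 bases) higher. The part of length in these values was not tested. Genes in a library share its depth and preparation, so these coefficients are descriptions.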

How the data were processed

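Total RNA of pooled oocytes was selected with oligo(dT), prepared with a stranded kit and sequenced from both ends, in 4 libraries of 1 condition each. The labels and the methods name different RNA extraction reagents. The authors deposited FPKM values, for which they ran Cufflinks in its stranded setting with mm10 as the genome. The labels' processing notes also list STAR 2.5.0 and Cuffdiff 2.2.1. Read counts were not used here. By the step between low FPKM values (0.001 to 0.15), the depth of TubA-20 was estimated at 0.896 times that of GV. Of nearby genes, 67.2% lay within 0.03 log2 of the step. For TubA-10 (1.71) and MII (1.62) the shares were 22.4% and 17.3%, so those estimates are weak. The paper lists more reads than in GV for TubA-10, MII and also TubA-20, so the TubA-20 estimate and the reads go opposite ways. Columns were mapped by sample description, and 21794 of 21959 identifiers matched a symbol (GENCODE M21, GRCm38).

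Log2 ratios of FPKM + 1 were computed without a filter, and a gene was called past 2-fold. With 1 library per condition no test was run. Every subunit was named, other genes came from written lists, and the members and lists were chosen with earlier results of these data known. Alternatives were a pseudocount of 0.1, a minimum of 5 FPKM, and 4 scalings (median change of 0, equal sums, upper quartiles or *Gapdh*). The fold call was tested on simulated data with known changes. The depth estimate was tested only in a simpler form, and the scalings and the motif search were not tested in this way. Python 3.11.15, numpy 2.4.6, pandas 2.3.3 and matplotlib 3.10.9 were used.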

Additional observations from a re-analysis of the deposited data

How the results depend on the processing

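No subunit changed its side of 2-fold in any of the 6 comparisons under the 6 alternative settings (pseudocount, minimum value and 4 scalings), so the counts of lower and higher subunits were as reported in each, and no called change turned its sign. The minimum of 5 FPKM kept all 10 subunits, so it could not alter their values and is no check of them. The median log2 change of the 10 subunits ranged over the settings from −0.12 to 0.23 for MII against GV, −0.15 to 0.25 for TubA-10 and −0.04 to 0.22 for TubA-20, and from 0.06 to 0.15 for TubA-10 against MII, −0.22 to −0.03 for TubA-20 against MII and −0.08 to 0.18 between the doses, so its sign against GV was not settled. Signs of small changes did depend on scaling, and all 10 kept theirs in TubA-20 against GV and against MII, 9 in TubA-10 against MII, 8 in MII against GV, 7 in TubA-10 against GV and 6 in TubA-20 against TubA-10. The number of subunits with a cytoplasmic polyadenylation element moved from 0 to 1 with the longest transcript. No paired analysis was possible because each condition has 1 library, and for the same reason no replicate could be left out. FPKM carry no counts, so no interval was given.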

Other observations

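*Anapc15-ps*, listed under a symbol of its own, was at 3.0 FPKM in GV, 0.635 in TubA-10, 0.453 in MII and 1.22 in TubA-20, against 101 to 302 FPKM for *Anapc15*. How fragments that match both entries would have been divided is not given in the sources used here.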
